A study of Mus musculus with 24 samples.

Results

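Mouse ESCs of the CGR8 line were compared 3 days after transfection, per the study's methods, with a pool of non-targeting siRNAs (si-CTL) or a pool of siRNAs against Rsl24d1 (si-Rsl24d1). All 6 libraries came from cells kept in serum with LIF, that is, at day 0, without doxycycline and so without induction of a rescue copy of RSL24D1. There were 3 libraries per group, out of 24 in the whole series, and every gene of the deposited table that passed a filter on low values was tested, which left 16447 of 54242 gene symbols. The labels call these replicates independent and give CGR8 as the cell line, with an empty vector for the cells without doxycycline, whereas the study's methods describe a rescue line carrying a doxycycline-inducible, siRNA-resistant Rsl24d1. Single-sample labels state 48 h and the treatment protocol 72 h between transfection and collection, and this conflict was not settled here. Where a change is set beside the rescue or beside retinoic acid, the other libraries were 3 si-CTL and 3 si-Rsl24d1 libraries with doxycycline at day 0, and 3 of each without doxycycline after 4 days in 10 nM retinoic acid. siRNA pools can also act on other transcripts, and no second pool was measured in these libraries.

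RSL24D1 is a ribosome biogenesis factor. It binds pre-60S particles, the precursors of the large ribosomal subunit, in the nucleolus, travels with them to the cytoplasm and is replaced there by the ribosomal protein RPL24. When large subunit assembly is disturbed, unassembled ribosomal proteins bind MDM2, the ubiquitin ligase that keeps the transcription factor p53 low, and p53 target genes are then transcribed. Amino acid supply is watched by a separate pathway, the integrated stress response, in which phosphorylated eIF2 raises the translation of the transcription factor ATF4, which switches on genes for amino acid synthesis, amino acid import and tRNA charging. ESCs in serum and LIF hold a mixture of naive states and states primed towards the epiblast, each with its own set of markers.

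Values are log2(TPM + 1), where TPM is a gene's share of transcripts, corrected for transcript length and scaled to a common sum in every library. Sequencing depth is unknown on this scale, so precision rests on the 3 libraries per group. Libraries of the same group correlated at 0.988 to 0.991 over the tested genes and libraries of different groups at 0.974 to 0.977 (Pearson's r across genes). Mitochondrial mRNA took 6.83% to 7.65% of TPM in the 6 libraries and ribosomal protein genes 16.0% to 17.4% in si-CTL against 18.1% to 18.9% in si-Rsl24d1 cells. Between 13775 and 13922 genes exceeded 1 TPM in si-CTL and between 14103 and 14163 in si-Rsl24d1 libraries. Markers of ESCs were high in every library, with a summed level of 6158 to 6297 TPM over 12 genes in si-CTL and of 5145 to 5180 TPM in si-Rsl24d1 cells.

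Rsl24d1 (ENSMUSG00000032215, chromosome 9, 73113426 to 73123333, plus strand, GRCm38), the targeted gene, was at 7.22, 7.14 and 7.10 log2(TPM + 1) in the si-CTL libraries and at 5.23, 5.28 and 5.07 in the si-Rsl24d1 libraries. The groups did not overlap, and the knocked-down cells kept 25.3% of the control TPM (35.7 ± 2.72 against 141 ± 6.08 TPM, SD, n = 3). The log2 fold change was -1.95 ± 0.07 (SE), with an adjusted p of 3.24e-14 in the limma fit across all genes. With the rescue the same siRNAs changed Rsl24d1 by -0.50, and at day 4 by -0.04 with an adjusted p of 0.66 in limma, so the day 4 cells carried no detectable difference in the targeted mRNA.

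Knockdown moved many genes by a little and a smaller set by a lot. In limma, 560 genes rose and 127 fell past an adjusted p of 0.01 and a 1.8-fold change, which is 3.40% and 0.772% of the tested genes. Without the fold threshold 2357 genes were higher (14.3%) and 2651 lower (16.1%), and the median change over all tested genes was -0.01. Protein-coding genes made up 492 of the 560 upregulated and 111 of the 127 downregulated genes. The upregulated genes were the less abundant in control cells, with a median of 2.10 log2(TPM + 1) against 4.09 for the downregulated genes. Of the upregulated genes 52 changed by more than 4-fold, and of the downregulated genes 5. The 3 libraries of one group were separated from those of the other in every called gene, 560 of 560 and 127 of 127, and in 51.1% of all tested genes, so separation is given below as a description of the values.

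The direction of change went with the level in control cells. Among genes between 1 and 2 log2(TPM + 1) in si-CTL, 6.15% were upregulated and 0.479% downregulated, whereas among those over 6 the shares were 0.453% and 1.11%. Small falls were most frequent in abundant genes. Of the genes over 6, 36.1% were lower and 8.03% higher at the adjusted p alone, against 1.79% and 15.6% of the genes under 1. The si-CTL libraries enter both the level and the change, and TPM are shares of a fixed sum. The part of either in the pattern was not tested. Counts of small changes in a list are therefore to be read against the share at its own level, which is given beside most lists that lean one way.

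**Figure D1:**
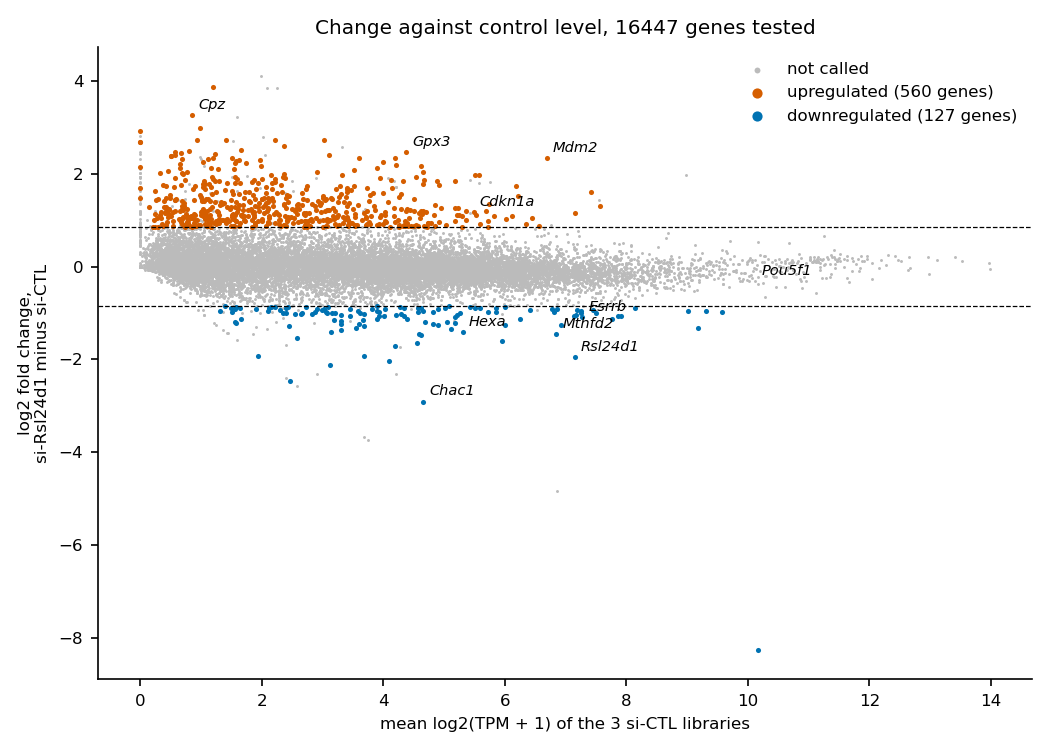
Log2 fold change of si-Rsl24d1 against si-CTL ESCs (vertical axis) against the mean log2(TPM + 1) of the 3 si-CTL libraries (horizontal axis) for the 16447 tested genes, with dashed lines at the 1.8-fold threshold. The 560 upregulated genes lie mostly at low to middle control levels, and the point near -8 is the pseudogene Gm10222, which was at 5.69, 0.00 and 0.00 in the si-Rsl24d1 libraries.

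The largest rise among protein-coding genes was that of Cpz, a secreted metallocarboxypeptidase with a Wnt-binding frizzled domain, which went from 0.90, 0.84 and 0.80 to 4.15, 4.01 and 4.16 log2(TPM + 1). Its log2 fold change was 3.26 ± 0.09 (SE, adjusted p = 4.19e-16, limma). Cpz was almost silent in all control libraries and clearly expressed in all knockdown libraries. Ltb4r2, a leukotriene receptor (2.97), Rtkn, a GTPase-binding scaffold protein (2.73), and Ms4a10 (2.73) and Shisal2b (2.72), both membrane proteins, followed. Developmental transcription factors were among the 15 largest rises too. Neurod1, a neuronal and endocrine bHLH factor, went from 2.36, 2.25 and 2.50 to 5.02, 4.91 and 4.96. Nkx2-9 rose by 2.51 and Tbx4, a hindlimb T-box factor, by 2.37. Gpx3, the secreted glutathione peroxidase, rose from 4.36, 4.40 and 4.37 to 6.86, 6.78 and 6.88, and Serpine2, a secreted serine protease inhibitor, from 4.17, 4.22 and 4.16 to 6.54, 6.51 and 6.54. These were the most abundant of the 15, with 113 and 91.3 TPM after knockdown. Gm29797, Apol8, the melanocyte antigen gene Mlana, Ddit4l, an inhibitor of mTORC1, and the phospholipase gene Plcd4 completed the 15, with log2 fold changes between 2.41 and 2.49.

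The largest fall among protein-coding genes was that of Chac1, which encodes a glutathione-degrading enzyme and is a classic ATF4 target. It stood at 4.66, 4.64 and 4.66 log2(TPM + 1) in si-CTL and at 1.79, 1.83 and 1.60 in si-Rsl24d1 libraries, a change of -2.91 ± 0.19 (SE, adjusted p = 2.70e-10, limma). Nupr1, a stress-induced chromatin protein, followed with -2.03. The targeted gene itself came next in size. Mef2b, a MADS-box transcription factor (-1.93), Lrrc34 (-1.64), Mov10, an RNA helicase that restrains retrotransposons (-1.60), Ubap1l (-1.55) and the growth factor gene Fgf17 (-1.48) fell as well. Mov10 went from 6.05, 5.94 and 5.88 to 4.40, 4.46 and 4.21 without overlap. Hexa, a lysosomal hexosaminidase subunit, fell by 1.42 on the log2 scale, Pmel, a melanosome protein, by 1.45 and the Hedgehog effector Gli2 by 1.36. Pck2, Mthfd2 and Gpt2, enzymes of amino acid and one-carbon metabolism, were also among the 14 largest falls.

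**Figure D2:**
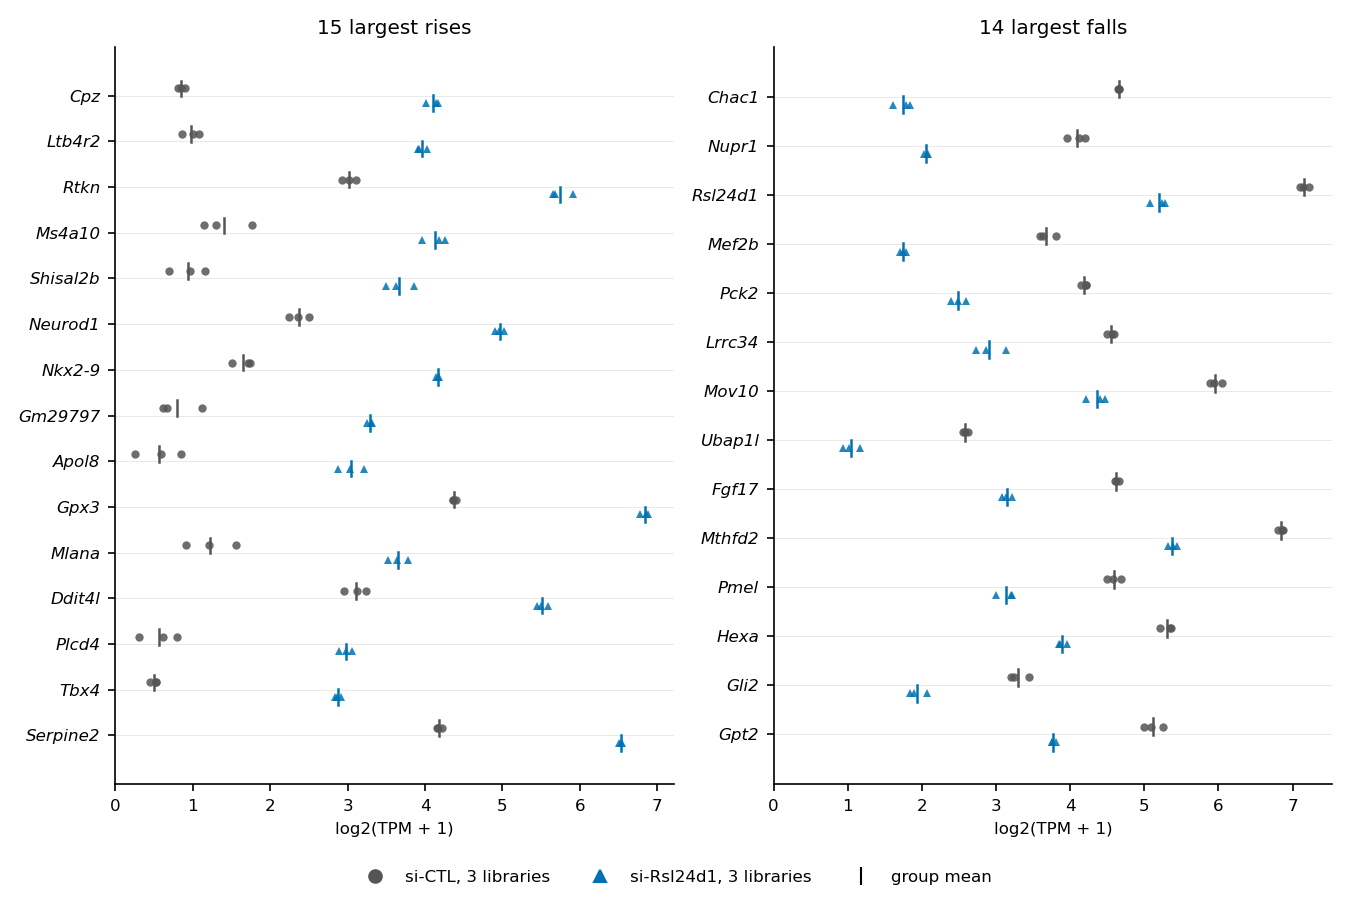
Levels in log2(TPM + 1) of the 15 protein-coding genes with the largest rises (left) and the 14 with the largest falls (right), with each point 1 library and each bar a group mean. The rule that chose these genes asked for groups that do not overlap. Cpz moves from below 1 to above 4, and Chac1 from 4.66 to below 2.

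Most tested genes of the p53 list were higher. Of 42 tested regulators and targets of p53, 31 were higher, 2 lower and 9 did not pass, with a median change of 0.88, and 22 were upregulated past 1.8-fold. Among all genes between 4 and 6, where the list's median control level of 4.73 lies, 12.5% were higher. Trp53 itself, the gene of p53, was at 8.89, 8.85 and 8.82 in si-CTL and at 8.92, 8.90 and 8.89 in si-Rsl24d1 libraries, a difference of 0.05 ± 0.05 (SE, adjusted p = 0.44, limma). The largest rise of the list was that of Mdm2, which p53 induces and which in turn marks p53 for degradation. It went from 6.78, 6.66 and 6.62 to 9.09, 8.97 and 9.02, or by 2.33 ± 0.06 (SE), and reached 520 TPM after knockdown. Dcxr, a xylulose reductase, rose by 2.16, Perp, a desmosome protein, by 1.97 and Btg2, an antiproliferative factor, by 1.92. Cdkn1a, the p21 inhibitor of cyclin-dependent kinases, went from 5.54, 5.44 and 5.48 to 6.66, 6.62 and 6.70, a rise of 1.18. The groups did not overlap in these 5 genes, as in every called gene. Both members that fell changed little: Ddb2, a DNA damage sensor, by -0.28 and Tigar, a fructose bisphosphatase, by -0.20. A separate list of 26 Bcl2 family and caspase genes had 3 higher and 5 lower (median -0.06), with Bcl2l1, which protects from apoptosis, at 0.56, and Hrk and Bmf, which promote it, at -0.95 and -0.50. That list leaves out apoptosis genes counted with p53, of which Bax (0.18), Bbc3 (0.65), Pmaip1 (1.55), Apaf1 (1.59), Fas (1.78) and Tnfrsf10b (0.88) were all higher.

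Most of the tested genes for making, importing and charging amino acids were lower. Over 6 lists with 122 tested genes in all, 71 were lower, 12 higher and 39 did not pass, and 24 were downregulated past 1.8-fold against 2 upregulated. The median change was -0.30. The median control level of the 6 lists ran from 4.21 to 7.01 log2(TPM + 1), and among all tested genes between 4 and 6 or over 6, 21.2% and 36.1% were lower.

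Among regulators of the integrated stress response were Chac1 and Nupr1, the protein-coding genes with the largest falls. Atf4 itself fell from 7.41, 7.47 and 7.44 to 6.64, 6.62 and 6.67, a change of -0.80 ± 0.10 (SE, adjusted p = 1.27e-06, limma). Of 22 members 11 were lower and 3 higher, with a median of -0.32. Beside Chac1 and Nupr1, the pseudokinase gene Trib3 went from 4.93, 4.96 and 4.78 to 3.69, 3.60 and 3.59. Herpud1, a component of endoplasmic reticulum associated degradation, fell by 1.19 on the log2 scale. The groups were fully separated in each of these genes. Ddit4, an inhibitor of mTORC1 that p53 also induces, rose against the rest of the list, from 6.24, 6.13 and 6.16 to 7.91, 7.86 and 7.98. Atf3, an early stress-induced factor, rose by 0.79 and Eif2ak1, the heme-sensitive eIF2 kinase, by 0.39.

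The serine pathway fell at each of its 3 steps from a glycolytic intermediate. Phgdh, the first enzyme, went from 7.17, 7.11 and 7.12 to 6.02, 6.11 and 6.06, Psat1, the second, from 7.93, 7.92 and 7.90 to 6.90, 6.90 and 6.77, and Psph, the last, changed by -1.01. Mthfd2, the mitochondrial folate enzyme that takes serine carbon onwards, fell from 6.86, 6.86 and 6.80 to 5.38, 5.44 and 5.32, or by 1.46 ± 0.09 on the log2 scale (SE, adjusted p = 1.65e-10, limma). Of 19 enzymes of serine, glycine and one-carbon metabolism 14 were lower and 3 higher (median -0.37). The largest of the 3 rises was that of Aldh1l1, the cytosolic enzyme that removes formate units from folate, which went from 1.62, 1.67 and 1.59 to 3.98, 3.84 and 3.94. Cbs (0.34) and Mthfd1 (0.24) were the others.

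Of 17 enzymes of asparagine, proline and related synthesis 12 were lower and none higher (limma, median -0.38), with 2 higher at an unadjusted p under 0.05. Pck2, mitochondrial PEP carboxykinase, went from 4.21, 4.15 and 4.21 to 2.40, 2.59 and 2.49. Gpt2, a mitochondrial alanine transaminase, changed by -1.34, Bcat1, the cytosolic branched-chain transaminase, by -1.27, and Pycr1, which makes proline, by -1.23. Among 25 amino acid transporters 12 were lower and 5 higher (median -0.26). The carriers of neutral amino acids Slc1a4 (-1.08) and Slc7a5 (-0.995), the cationic carrier Slc7a1 (-1.03) and the glycine carrier Slc6a9 (-0.87) fell the most. The largest rise was that of Slc38a2, an inducible carrier of small neutral amino acids, at 0.46.

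The enzymes that charge tRNAs in the cytosol were lower in 17 of 22 tested genes and higher in none, also at an unadjusted p under 0.05 (limma), with a median of -0.44. Sars, which charges serine tRNA, went from 7.77, 7.82 and 7.72 to 6.60, 6.70 and 6.62, and Nars, which charges asparagine tRNA, from 7.92, 7.87 and 7.79 to 6.80, 6.82 and 6.74. Aars, for alanine, and Mars1, for methionine, changed by -0.99 and -0.98. Of 17 mitochondrial enzymes of the same kind 5 were lower and 1 was higher (median -0.08). Whether the cytosolic and mitochondrial lists differ was not tested.

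Several of these promoters hold the letters that ATF4 is known to bind together with C/EBP factors. The motif searched was TGATGNAA, on either strand, which reads TTNCATCA on the other, in the 250 bases before the transcription start (RefSeq, GRCm38.p6). A promoter entry was matched for 96 of the 122 genes, and 13 of these, 13.5%, held the motif. By list, it was held by 5 of 20 stress response regulators and 4 of 13 enzymes of asparagine, proline and related synthesis. Cytosolic tRNA-charging enzymes held it in 3 of 15 cases and amino acid transporters in 1 of 18. It was found in 0 of 16 enzymes of serine, glycine and one-carbon metabolism and in 0 of 14 mitochondrial tRNA-charging enzymes. Among the 71 genes that were lower, 53 had an entry and 11 of them, 20.8%, held it, against 2 of 43 among the rest (4.65%). Over all tested genes with an entry, 266 of 11481 held it, which is 2.32%. Fewer than 80% of the listed genes had an entry, so a check of the lists against all promoters is void. The lists were chosen with earlier results of these data known, so setting the lower genes against the rest is no test either. A match describes the letters only. The stretches below show the motif in capitals with its neighbouring bases in 5 genes that fell, read 5′ to 3′ towards the gene. They lie at chr2:119351029-119351076 on the plus strand (Chac1), chr7:126625553-126625600 on the minus strand (Nupr1), chr14:55540143-55540190 on the plus strand (Pck2), chr11:120643824-120643871 on the minus strand (Pycr1) and chr8:111033710-111033757 on the plus strand (Aars).
Chac1: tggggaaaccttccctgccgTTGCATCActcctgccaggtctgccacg
Nupr1: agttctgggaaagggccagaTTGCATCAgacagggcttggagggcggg
Pck2: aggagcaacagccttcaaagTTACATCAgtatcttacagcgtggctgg
Pycr1: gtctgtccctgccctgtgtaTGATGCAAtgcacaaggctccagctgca
Aars: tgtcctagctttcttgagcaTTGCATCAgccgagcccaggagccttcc
The motif begins 193 bases before the start in Chac1, 110 in Nupr1, 103 in Pck2, 103 in Pycr1 and 112 in Aars. Herpud1, Vldlr, Asns, Gars, Tars and Got1 were the other 6 genes with a match among those that were lower, and they changed by -1.19, -0.89, -0.80, -0.68, -0.60 and -0.38.

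**Figure D3:**
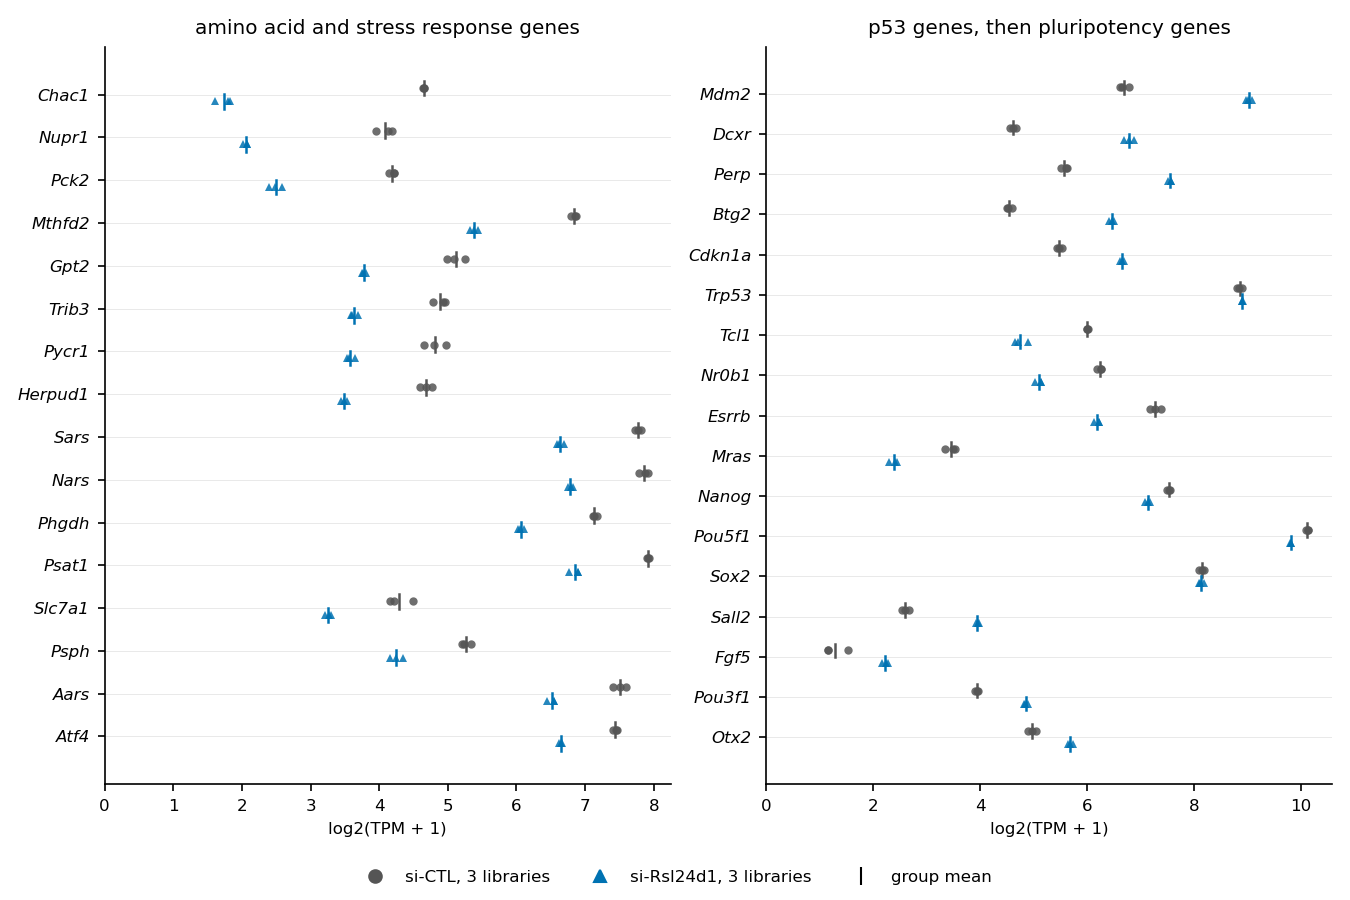
Levels in log2(TPM + 1) of amino acid and stress response genes (left), and of p53 genes followed by pluripotency genes (right), with each point 1 library and each bar a group mean. All 16 genes on the left lie lower in the 3 si-Rsl24d1 libraries, and on the right Trp53 and Sox2 lie close together in both groups while Mdm2 rises from below 7 to about 9.

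Most markers of the naive state were lower, whereas Pou5f1, Nanog and Sox2 changed by less than 1.8-fold. Of 26 naive pluripotency genes 18 were lower and 1 higher, with a median of -0.60, and 6 were downregulated past 1.8-fold. Among all genes between 4 and 6, where the list's median control level of 5.99 lies, 21.2% were lower. Tcl1, a coactivator of AKT kinase, went from 6.00, 6.03 and 6.00 to 4.71, 4.89 and 4.65. Nr0b1, an orphan nuclear receptor that binds OCT4, went from 6.26, 6.26 and 6.20 to 5.13, 5.14 and 5.03, and Esrrb, a nuclear receptor of the naive network, from 7.38, 7.27 and 7.17 to 6.23, 6.22 and 6.13. The groups did not overlap in the 3 genes. The abundant marker Zfp42, also called REX1, changed by -0.96, Mras, a small GTPase, by -1.07, and Gbx2, a homeobox factor downstream of LIF, rose by 0.42. Of 12 core factors 6 were lower and none higher (limma, median -0.20), with 2 higher at an unadjusted p under 0.05, at a median control level of 7.39 where 36.1% of all genes were lower. Pou5f1, which encodes OCT4, went from 10.10, 10.13 and 10.13 to 9.81, 9.80 and 9.82, a change of -0.31 ± 0.04 (SE). Nanog changed by -0.40, Lin28a by -0.38 and Foxd3 by -0.37. Sox2 was at 8.20, 8.14 and 8.10 against 8.19, 8.12 and 8.10, a difference of -0.01 ± 0.05 (SE, adjusted p = 0.89, limma).

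Genes of the formative and primed epiblast moved in both directions. Of 24 tested members 11 were higher, 6 lower and 7 did not pass, with a median of 0.20. Among all genes between 4 and 6, where the list's median control level of 4.38 lies, 12.5% were higher and 21.2% lower. Sall2, a zinc finger factor, went from 2.67, 2.54 and 2.59 to 3.98, 3.92 and 3.96, Fgf5, the classic marker of the primed epiblast, from 1.16, 1.53 and 1.16 to 2.24, 2.27 and 2.17, and Pou3f1, a POU factor of the formative state, from 3.96, 3.91 and 3.94 to 4.91, 4.83 and 4.82. Otx2, which helps cells leave the naive state, rose by 0.71. The groups were separated in all 4. Members that fell included the de novo methyltransferase gene Dnmt3b (-0.53) and its cofactor Dnmt3l (-0.40), and Car14 (-0.81) and Ly6a (-0.50). Dnmt3a, the other de novo enzyme, rose by 0.52. Of 15 genes of DNA methylation and demethylation 6 were lower and 1 higher (median -0.27), close to the 36.1% lower among all genes at the list's control level of 6.33, with Zfp57, which guards imprints, at -0.69 and Uhrf1, which brings the maintenance enzyme to DNA, at -0.58.

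The PRC2 core genes changed by small amounts, whereas 2 PRC1 genes rose past 1.8-fold. The PRC2 core genes Eed (-0.27), Ezh2 (-0.27) and Suz12 (-0.30) were all lower at adjusted p values of 8.65e-06, 6.32e-04 and 5.40e-03 in limma, and none passed 1.8-fold. Of 14 PRC2 subunits 6 were lower and 1 higher (median -0.20), near the 36.1% lower among all genes over 6, where the list's median control level of 7.07 lies, and the accessory subunits Epop (-0.74), Phf19 (-0.57) and Jarid2 (-0.50) fell the most. Of 23 PRC1 subunits 9 were higher and 4 lower (median 0.05). Among all genes between 2 and 4, where the list's median control level of 3.85 lies, 16.8% were higher and 13.4% lower. Bmi1, a PCGF subunit, rose by 1.15 and Phc2 by 0.96, whereas Pcgf6 changed by -0.48 and Pcgf2 by -0.36.

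Genes of DNA replication and of entry into S phase were lower in 26 of 32 cases and higher in none, also at an unadjusted p under 0.05 (limma), although none passed 1.8-fold. The median was -0.29, and the list's median control level was 6.35 log2(TPM + 1), where 36.1% of all genes were lower. Gins2, of the replicative helicase, changed by -0.54, Ccne1, cyclin E1, by -0.53, Cdt1, a licensing factor, by -0.51 and the helicase subunit gene Mcm6 by -0.48. Ccne1 went from 7.22, 7.13 and 7.19 to 6.64, 6.68 and 6.62. Of 29 G2/M genes 7 were lower and 3 higher (median -0.05), a smaller share lower than the 36.1% of all genes at their control level of 6.49. Among 15 D-type cyclins, CDK inhibitors and pocket proteins 6 were higher and 3 lower (median -0.04), and 5 were upregulated past 1.8-fold. Rb1, the retinoblastoma gene, rose from 3.16, 2.69 and 2.88 to 5.05, 4.90 and 4.91, its relative Rbl2 by 1.24 and the CDK4 inhibitor gene Cdkn2b by 1.06, while Ccnd3 changed by -0.53. In the Myc network 3 of 12 genes were higher and 3 lower (median -0.12). Myc went from 5.27, 5.18 and 5.23 to 4.66, 4.74 and 4.66, Mycn rose by 0.38, and Mxd4, which competes with MYC for its partner MAX, rose by 1.60.

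Few mRNAs of the ribosome itself passed the test, although most lay slightly higher. Rpl24, which takes the place of RSL24D1 on the subunit, was at 10.46, 10.53 and 10.59 in si-CTL and at 10.54, 10.52 and 10.58 in si-Rsl24d1 libraries, a difference of 0.02 ± 0.07 (SE, adjusted p = 0.83, limma). Rpl8 differed by less than 0.01 with an adjusted p of 0.95 in limma. The large and small subunit lists had median control levels of 10.8 and 11.1. Among all genes over 6, 8.03% were higher and 36.1% lower. Of 46 large subunit genes 5 were higher and 3 lower (median 0.11), and of 33 small subunit genes 7 were higher and 1 lower (median 0.16). At an unadjusted p under 0.05 (limma), 19 large subunit genes were higher and 4 lower, and 18 small subunit genes were higher and 1 lower. Among the large subunit genes lower at the adjusted p were Rpl3 (-0.53) and Rpl5 (-0.23), a member of the 5S RNP that binds MDM2. Ribosomal protein genes have many near-identical pseudogenes, and reads shared between copies make single values of this family uncertain.

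Factors that build the large subunit moved in both directions, with more of them lower. Of 30 late pre-60S maturation factors 8 were lower, Rsl24d1 included, and 4 higher (median -0.11). At an unadjusted p under 0.05 (limma), 14 were lower and 5 higher. Eif6, which keeps 60S subunits from joining 40S subunits, changed by -0.29, the GTPase gene Gtpbp4 by -0.39, Dnajc21 by -0.45 and Bop1 by -0.36, whereas Brix1 rose by 0.38. At the control levels of the lists in this paragraph, all over 6, 36.1% of all genes were lower. Nucleolar and RNA polymerase I factors were lower in 9 of 33 cases and higher in 3 (median -0.10), and snoRNA host genes in 5 and 1 of 16 (median -0.13). Translation factors were lower in 20 of 41 cases and higher in 3 (median -0.14), at a median control level of 8.03. Eif2s2, a subunit of eIF2, changed by -0.44 and the elongation factor gene Eef1a1 by 0.21.

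Signalling lists held a few large changes. The Wnt, TGF-beta and LIF lists had median control levels of 1.81, 3.48 and 4.65. At these levels 17.8%, 16.8% and 12.5% of all genes were higher, and 8.18%, 13.4% and 21.2% lower. Of 48 Wnt pathway genes 13 were higher and 7 lower (median 0.07), and 7 were upregulated past 1.8-fold against 1 downregulated. The ligand Wnt8a went from 1.85, 1.83 and 1.54 to 3.96, 3.91 and 4.01 and the ligand Wnt3 from 2.07, 1.89 and 2.06 to 3.46, 3.39 and 3.52. The receptor gene Fzd10 rose by 1.21, and Sfrp1, a secreted Wnt antagonist, changed by -1.27. Of 37 genes of the TGF-beta superfamily 8 were higher and 2 lower (median 0.07). Nodal, the epiblast ligand, went from 5.28, 5.17 and 5.16 to 6.30, 6.27 and 6.35, Bmp7 rose by 1.28 and the activin antagonist gene Fst by 0.90, while Bmp4 went from 4.56, 4.65 and 4.49 to 3.49, 3.45 and 3.85 and Inhbb changed by -1.01. In the LIF, Stat3 and FGF-ERK list 8 of 26 were higher and 4 lower (median 0.05). Fosl1, an AP-1 subunit, rose by 1.84 and Fos by 0.80, whereas Fgf4, the ligand that drives exit from the naive state, changed by -0.82 and the feedback inhibitor genes Spry4 and Spry1 by -0.89 and -0.52.

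In each list of developmental transcription factors more of the tested members were higher than lower. The filter kept 31 of 59 homeobox regulators, 24 of 38 forkhead, GATA, Sox and T-box regulators and 25 of 39 bHLH and zinc finger regulators. In that order 12, 7 and 9 were higher, and 4, 1 and 2 lower, with medians of 0.18, 0.17 and 0.16. Their median control levels were 0.96, 0.81 and 2.07, and more higher than lower genes is also the background there, with 15.6% higher and 1.79% lower among all genes under 1 and 16.8% and 13.4% between 2 and 4. Beside Nkx2-9, Tbx4 and Neurod1, the rises included Hes6 (1.70), a neurogenic repressor, Foxj1 (1.48), the master factor of motile cilia, and Irx3 (1.30). Pax6 (-0.78) and T (-0.81), the mesoderm factor brachyury, fell. Apart from Hes6, the named genes that rose were below 5 TPM before knockdown. Of 24 retinoic acid pathway genes 4 were higher and 4 lower (median 0.09), and Stra8, a meiotic entry gene, changed by -0.87. At that list's median control level of 1.55, 17.8% of all genes were higher and 8.18% lower.

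Lists of cholesterol synthesis, glycolysis, lysosome and glutathione genes leaned lower, most members by less than 1.8-fold. In each the share lower was above that of all genes at its control level, and the part of level was not tested. Glycolysis genes had a median control level of 7.40, where 36.1% of all genes were lower, and the cholesterol, lysosome and glutathione lists levels of 5.31, 5.56 and 5.40, where 21.2% were. Of 24 cholesterol synthesis genes 15 were lower and none higher, also at an unadjusted p under 0.05 (limma, median -0.31), with the sterol demethylase gene Cyp51 at -0.64 and Fdps, which makes farnesyl pyrophosphate, at -0.52. Of 25 glycolysis enzymes and glucose transporters 15 were lower and 2 higher (median -0.28). Aldoc, Pfkp and Eno3, isoforms of aldolase, phosphofructokinase and enolase, changed by -0.96, -0.91 and -0.89, and the transporter gene Slc2a1 rose by 0.44. Of 31 lysosome genes 16 were lower and 4 higher (median -0.18). The hydrolase genes Hexa (-1.42), Neu1 (-0.67), Ctsa (-0.64) and Glb1 (-0.57) fell the most, and Hexa was at 5.35, 5.36 and 5.21 in si-CTL and at 3.95, 3.84 and 3.86 in si-Rsl24d1 libraries. Of 25 glutathione and oxidative stress genes 13 were lower and 4 higher (median -0.23), with the superoxide dismutase gene Sod2 at -0.71 opposite to Gpx3.

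Proteasome subunits were lower in 25 of 34 cases and higher in none (limma, 1 at an unadjusted p under 0.05, median -0.21), and mitochondrial ribosomal proteins in 25 of 54 and higher in 2 (median -0.14), none past 1.8-fold. Their median control levels were 7.63 and 6.25 log2(TPM + 1), so the share of 36.1% lower among genes over 6 stands beside both counts. None of the 13 mRNAs of the mitochondrial genome passed in either direction (limma, 2 higher and 1 lower at an unadjusted p under 0.05, median 0.08).

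The remaining lists moved little or in both directions. Unfolded protein response genes of the endoplasmic reticulum were higher in 6 of 23 cases and lower in none (limma, 2 at an unadjusted p under 0.05, median 0.07), with the chaperone gene Hspa5 at 0.33. At that list's median control level of 5.57, 12.5% of all genes were higher and 21.2% lower. Heat shock genes were higher in 4 of 19 and lower in 1, innate immune and interferon genes in 4 and 5 of 16, with Cxcl10 at 1.11 and Oas1a at -0.80, and imprinted genes in 7 and 3 of 28. Collagens, laminins and matrix genes were higher in 5 of 32 and lower in 6, actin cytoskeleton genes in 6 and 4 of 24, with the YAP target genes Ccn1 and Ccn2 at 0.96 and 0.85, and cadherins, integrins and filaments in 9 and 5 of 27, with Itgb4 at 1.40. Replication-dependent histone genes were higher in 2 of 28 and lower in none (limma, 1 at an unadjusted p under 0.05), and their mRNAs lack poly-A tails, so the kit named in the labels would capture them poorly. Germline and meiosis genes were higher in 7 of 27 and lower in 4, with the spermatogonial factor Dmrtb1 at 1.92. The heat shock list had a median control level of 6.28, where 8.03% of all genes were higher and 36.1% lower. The innate immune, matrix and germline lists lay at 2.58, 3.94 and 2.77, where the shares were 16.8% and 13.4%. The imprinted, actin and cadherin lists lay at 4.62, 5.68 and 4.38 (12.5% higher and 21.2% lower). The histone list lay at 1.22 (17.8% higher and 8.18% lower).

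**Figure D4:**
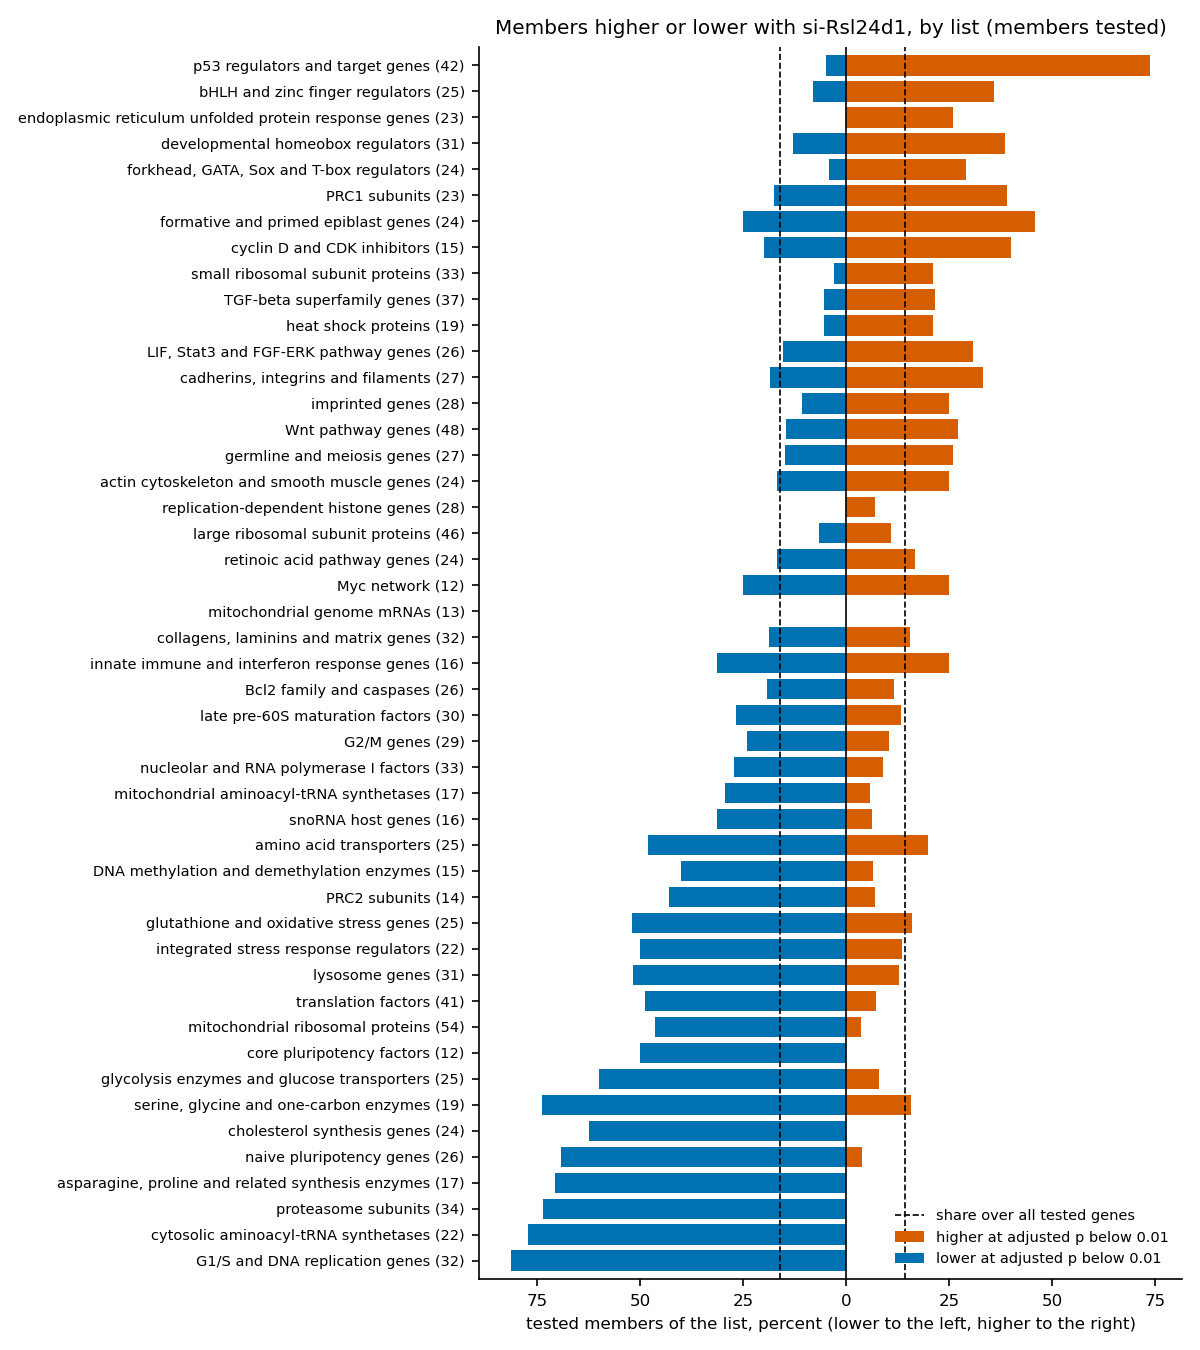
Share of tested members (horizontal axis, percent) that were higher (right) or lower (left) with si-Rsl24d1 at an adjusted p below 0.01 in limma, for the 47 lists with the number tested in parentheses. Dashed lines mark the shares over all tested genes, 14.3% higher and 16.1% lower. The p53 list reaches furthest to the right and the G1/S list furthest to the left.

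Markers of other cells that an ESC culture can hold were low, and some moved with the knockdown. Of 12 genes of 2-cell-like cells, a rare state of ESC cultures marked by Zscan4 genes, 9 were tested and all 9 were higher, and their summed level over the 12 went from 17.1 to 20.3 TPM in si-CTL to 46.0 to 51.5 TPM in si-Rsl24d1 libraries. These genes are clusters of near-identical copies, so the values of single members are uncertain. Trophoblast markers summed to 55.8 to 60.5 against 76.3 to 81.6 TPM, and 3 of 8 tested were higher. Fibroblast markers summed to 41.0 to 50.5 against 30.8 to 32.6 TPM, with 2 of 9 lower. Members differed in level. Dcn and Lum were at or below 0.18 TPM in all 6 libraries, and Col1a1, Col1a2 and Thy1 had si-CTL means of 21.8, 10.2 and 6.42 TPM. Mesoderm markers summed to 17.6 to 19.09 against 11.2 to 14.5 TPM, with 2 of 6 lower. Primitive endoderm markers (14.0 to 19.09 against 14.6 to 16.7 TPM, 1 of 8 lower) and neural progenitor markers (93.7 to 102 against 94.3 to 97.3 TPM, 1 of 5 higher and 1 lower) overlapped between groups. The ESC markers were lower in 8 of 12 genes and higher in none (limma, 1 at an unadjusted p under 0.05). In bulk RNA fewer cells of a state and less RNA of its genes per cell cannot be told apart, and the part of these states in the changes above was not tested.

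With rescue the response was smaller and still present. With doxycycline the median change of the 560 upregulated genes was 0.74 and that of the 127 downregulated genes -0.63, against 1.19 and -1.01 without, values that describe genes chosen on the unrescued contrast. A difference between the unrescued and the rescued response passed in limma for 343 of all tested genes, or 2.09%. That count fell to 206 without si-CTL replicate 2, to 191 without si-Rsl24d1 replicate 1 and to 183 without si-Rsl24d1 replicate 3. In the p53 list 14 of 42 genes passed that test, and Mdm2 rose by 1.62 and Btg2 by 1.36 with rescue (interaction adjusted p = 6.93e-05 and 4.51e-05, limma). In the 6 amino acid lists 6 of 122 genes passed it, Phgdh among them (-1.07 without against -0.63 with rescue, interaction adjusted p = 7.60e-04, limma). Chac1 (-2.36 with rescue), Atf4 (-0.73) and Trib3 (-1.18) had interaction adjusted p values of 0.30, 0.87 and 0.92 in limma. With rescue 54 of the 122 genes were still lower, with a median of -0.19 against 0.005 over all tested genes. The share of all tested genes lower with rescue was not counted, so the 54 have no background beside them. Naive pluripotency genes passed in 6 of 26 cases, and Nr0b1 changed by -0.55 with rescue. With doxycycline, si-Rsl24d1 cells had 0.50 less Rsl24d1 mRNA on the log2 scale than si-CTL cells. Both groups received doxycycline, so this value is not set against cells without it.

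After 4 days of retinoic acid, when no difference in Rsl24d1 mRNA was detectable, the response had another make-up. At day 4, 24.9% of tested genes were higher and 6.04% lower with si-Rsl24d1, and the median change was 0.13. Of the 560 genes upregulated at day 0, 176 were higher (31.4%) and 26 lower at day 4, and of the 127 downregulated genes 16 were lower (12.6%) and 15 higher. A knockdown response that differed between the days passed in limma for 30.9% of all tested genes. Over the amino acid lists 37 genes were higher and 2 lower at day 4, with a median of 0.17. In the p53 list 20 were higher and 2 lower, and Mdm2 was 0.40 higher. The 3 comparisons share no library.

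**Figure D5:**
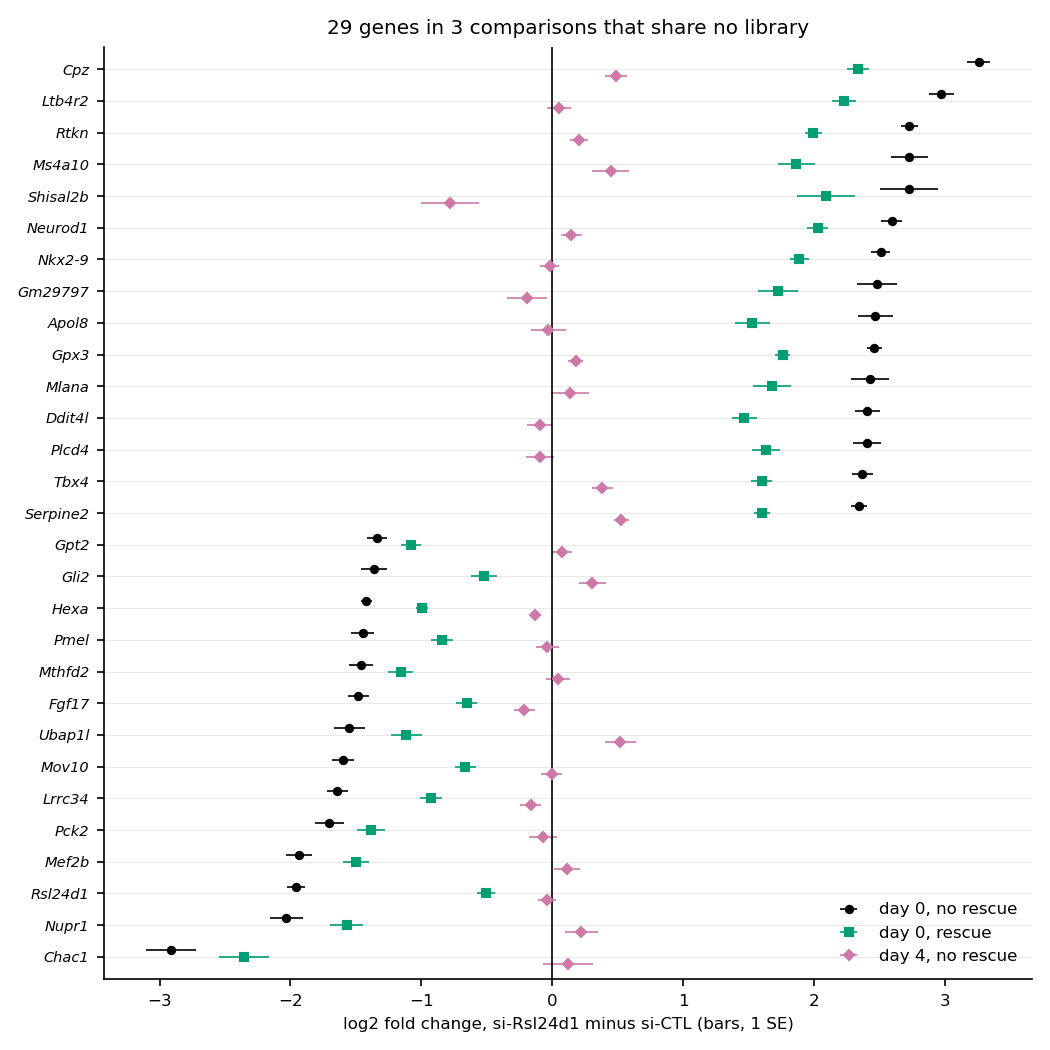
Log2 fold change of si-Rsl24d1 against si-CTL (horizontal axis, bars 1 SE) for 29 genes with the largest changes at day 0 without rescue, shown for day 0 without rescue, day 0 with rescue and day 4 without rescue. All 29 keep their direction with rescue, at a smaller size, and most lie near 0 at day 4, where Shisal2b is at -0.78. The genes were chosen on the day 0 change without rescue, so their smaller size in the other comparisons is no test. The targeted gene Rsl24d1 is among them.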

How the data were processed

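The authors deposited log2(TPM + 1) values for 24 libraries. Per the study's methods reads were quantified with Salmon and summarised per gene with tximport. The submitters' processing notes name Salmon 1.4.0 and STAR 2.7.8a with a human build, and the methods name a mouse one. The labels name a poly-A kit, the methods a stranded total RNA kit. These conflicts were not settled. No counts or depths are kept.

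Genes with a mean of at least 0.5 over 24 libraries were fitted as 8 group means with limma 3.58.1 in R 4.3.3 (empirical Bayes with trend, Benjamini-Hochberg adjustment, two-sided). Calls needed an adjusted p below 0.01, and upregulated or downregulated genes also a 1.8-fold change. Fold changes on log2(TPM + 1) understate the change of low genes. In data simulated for this comparison, 92% of genes changed by 1 on the log2 scale and 98% of those changed by 2 were recovered, with 0 false calls over 16447 genes. The simulation used independent normal noise and changed only genes with a si-CTL mean above 2, so recovery of lower genes was not measured. Replicate numbers did not pair the libraries (residual correlations of -0.008, 0.046 and 0.010), and no 2 libraries were identical.

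Named were Rsl24d1 and 14 fixed genes, the 15 largest protein-coding rises and falls whose groups did not overlap and whose higher mean reached 2, and up to 4 members of each of 47 lists in each direction. Gm10222, Zfp42, 6 apoptosis genes and the genes named for a promoter match were named after their values were seen. The genes, lists and markers were chosen with earlier results of these data known. Annotation is gencode vM21 and RefSeq GRCm38.p6, matched by symbol. Some items that this rule names are not reported here. The alternatives are listed in the closing section.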

Additional observations from a re-analysis of the deposited data

Results flagged for a closer look

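Results were flagged here because the response to si-Rsl24d1 differed between conditions in an interaction test in limma at an adjusted p below 0.01. The response without rescue differed from that with rescue for 343 genes, and for 58 of the 310 genes chosen by the naming rule. The day 0 response differed from the day 4 response for 5082 genes, and for 225 of the 310. Of these, 52 passed in opposite directions on the 2 days.

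The largest such differences (day 0 minus day 4, log2) were those of Shisal2b (3.51), Dcxr (3.02) and Hes6 (2.11), which rose at day 0 and fell at day 4, and of Ubap1l (-2.07), Col1a1 (-2.05) and Mras (-1.82), which fell at day 0 and rose at day 4. Myc changed by -0.54 at day 0 and by 0.93 at day 4, and Psph by -1.01 and 0.41. Groups of 3 libraries were too small for a test of single libraries that stand apart.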

How the results depend on the processing

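With 0.1 in place of 1 added to TPM, 921 genes were upregulated and 303 downregulated, against 560 and 127. With 2 added, without a filter, with a filter at a mean of 1.5, with median of ratios scaling, with replicate number as a block or with only the 2 groups compared fitted, the counts of upregulated genes ran from 417 to 570 and those of downregulated genes from 87 to 135, each within 1.5 times the main count. The replicate block gave 558 and 127 calls and 254 genes with a rescue interaction. With any 1 of the 6 libraries left out, there were 541 to 589 upregulated and 116 to 149 downregulated genes. The rescue interaction gave 183 to 285 genes when a library was left out, against 343, with 206 without si-CTL replicate 2, 191 without si-Rsl24d1 replicate 1 and 183 without si-Rsl24d1 replicate 3, and at 230 to 497 under the other alternatives. The cause was not tested.

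Of 309 named genes other than Rsl24d1, 67 lost their call under at least 1 alternative, none of them a gene past 1.8-fold, and 3 changed sign, all without a call. When single libraries were left out, Sox2 lay between -0.038 and 0.015, Rpl24 between -0.011 and 0.050 and Rpl8 between -0.030 and 0.016. Counts of small falls in abundant genes rest on a scale of shares, and depth, which would bound the low genes, is unknown.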
